A study of Mus musculus with 3 samples.

Results

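The guidance genes described here are the ephrins, their Eph receptors, the semaphorins, and the plexins and neuropilins that receive semaphorins. They were taken by symbol from the protein-coding autosomal genes of the RefSeq table of GRCm38.p6, which gave 50 of 20661 genes: 14 Eph receptors, 7 ephrins, 20 semaphorins, and 9 plexins and neuropilins. Plxnb3, Plxna3 and Efnb1 lie on the X chromosome and were not included. The data are ChIP-seq maps of acetylated lysine 27 of histone H3 (H3K27ac), found on promoters and enhancers in use, from pancreatic spheroids, which are three-dimensional cultures of epithelial cells. The first group was derived from untreated C57BL/6J wild-type mice and the other from C57BL/6J wild-type mice after treatment with caerulein, a peptide related to cholecystokinin whose repeated injection inflames the pancreas. Both groups were grown in the same DMEM/F12 medium with EGF, hydrocortisone, cholera toxin, nicotinamide and bovine pituitary extract, so any agent in it acted on the untreated cells too. The title of the study poses the question of whether the epithelium keeps a memory of inflammation that has resolved. The time after caerulein and the number of mice behind each culture are not given in the sources used here. With 1 H3K27ac library and 1 peak list per condition, the differences described have no replicates behind them. A weaker mark in fewer cells cannot be told apart from less mark in every cell.

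Ephrins and Eph receptors signal between touching cells. The receptors are tyrosine kinases, A-type ephrins are held to the membrane by a lipid anchor and B-type ephrins span it, and signals pass both into the receptor-bearing and into the ephrin-bearing cell. Semaphorins act through plexins, which control small GTPases and the cytoskeleton, and the secreted class 3 members mostly need a neuropilin as co-receptor. Both systems are best known from growing axons and also act in cell sorting, boundaries and branching in epithelia. In the intestine EphB receptors and B-type ephrins position cells along the crypt.

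A peak was counted for a gene when it lay within 50 kb of the gene body, the interval between the annotated ends of the gene. Near the 50 genes lay 272 of 36846 autosomal peaks in the untreated list and 271 of 37924 in the post-caerulein list. The covered length of a gene is the number of bases that peaks cover within that window. Folds and log2 ratios of covered length were taken with 1 kb added to both lengths, so they are smaller than the printed lengths alone would give. A peak is list-only when it shares no base with any peak of the other list. A gene start with a peak no farther than 1 kb away was called marked (for 6 genes whose start the table does not give, either end of the gene was taken).

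The promoter sequences of 6 genes are shown because their loci carry the results below: Efna5, with most post-caerulein-only peaks; Epha2, with most untreated-only peaks; Epha4 and Efnb2, where the domain over the start was in 1 piece in untreated spheroids and in pieces after caerulein; Sema4b, with the widest peak; and Efna3, the one gene whose start was marked in 1 list only. They are from RefSeq on GRCm38.p6, 5′ to 3′ on the gene's strand, up to 250 bases ending just before the outermost start. Capitals mark the GC box GGGCGG, the TATA box TATAAA and the cAMP response element TGACGTCA wherever these letters occur on either strand. On the opposite strand a GC box reads CCGCCC and a TATA box reads TTTATA. The AP-1 motif TGANTCA and the E-box CACGTG were also searched, and no motif contains another. The positions are chr17:62881318-62881567 (minus strand) for Efna5, chr4:141300971-141301220 (plus) for Epha2, chr1:77515108-77515338 (minus) for Epha4, chr8:8661243-8661492 (minus) for Efnb2, chr7:80186620-80186869 (plus) for Sema4b and chr3:89322940-89323189 (minus) for Efna3.
Efna5: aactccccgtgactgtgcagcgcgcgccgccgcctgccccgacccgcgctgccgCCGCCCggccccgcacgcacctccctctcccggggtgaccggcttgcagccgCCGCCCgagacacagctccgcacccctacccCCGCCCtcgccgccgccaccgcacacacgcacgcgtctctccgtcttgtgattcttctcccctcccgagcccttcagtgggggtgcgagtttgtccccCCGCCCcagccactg
Epha2: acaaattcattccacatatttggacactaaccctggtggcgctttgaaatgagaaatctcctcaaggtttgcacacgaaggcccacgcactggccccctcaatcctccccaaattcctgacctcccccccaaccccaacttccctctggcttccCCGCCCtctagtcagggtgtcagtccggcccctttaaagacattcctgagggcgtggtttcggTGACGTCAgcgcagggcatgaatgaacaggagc
Epha4: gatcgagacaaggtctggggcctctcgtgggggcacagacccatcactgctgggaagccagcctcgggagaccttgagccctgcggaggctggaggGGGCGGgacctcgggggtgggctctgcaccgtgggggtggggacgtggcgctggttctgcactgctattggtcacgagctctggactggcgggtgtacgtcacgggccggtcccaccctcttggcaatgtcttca
Efnb2: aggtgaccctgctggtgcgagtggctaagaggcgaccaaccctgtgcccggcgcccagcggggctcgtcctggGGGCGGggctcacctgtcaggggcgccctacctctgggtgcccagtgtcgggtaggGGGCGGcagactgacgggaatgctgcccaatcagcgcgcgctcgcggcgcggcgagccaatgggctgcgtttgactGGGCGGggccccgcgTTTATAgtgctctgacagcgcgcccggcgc
Sema4b: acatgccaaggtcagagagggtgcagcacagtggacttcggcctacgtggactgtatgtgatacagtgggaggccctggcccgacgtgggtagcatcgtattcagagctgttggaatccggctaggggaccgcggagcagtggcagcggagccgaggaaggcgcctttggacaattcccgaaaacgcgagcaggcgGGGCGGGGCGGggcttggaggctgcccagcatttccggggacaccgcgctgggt
Efna3: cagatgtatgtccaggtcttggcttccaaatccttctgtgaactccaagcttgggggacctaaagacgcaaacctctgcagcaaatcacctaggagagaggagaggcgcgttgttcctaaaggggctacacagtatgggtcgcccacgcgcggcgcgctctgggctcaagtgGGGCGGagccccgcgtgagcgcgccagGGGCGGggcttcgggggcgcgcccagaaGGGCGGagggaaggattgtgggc

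The Efna5 promoter held 32 CG dinucleotides and 4 GC boxes. That of Efnb2 held 27 CG, 3 GC boxes and a TATA box whose letters lie on the opposite strand. Sema4b had 20 CG and 2 GC boxes, of which the second begins where the first ends, Efna3 19 and 3, and Epha4 14 and 1. Epha2 was the poorest in CG of the 6, with 9, and the only one of them with a cAMP response element. The promoter of Sema4a, also picked by rule for its long covered length but not shown, held 2 CG and 1 GC box. A match is a description of the letters and not a bound site. Among the 58 promoters that RefSeq gives for 44 of the genes (windows of 300 bases, 250 before and 50 after a start), 77.6% held a GC box, against 47.0% of 20084 promoters of 16456 autosomal genes. A TATA box was present in 1 of the 58 (1.72%, against 12.7% of all), the AP-1 motif in 3 (5.17% against 7.06%), the cAMP response element in 1 (1.72% against 2.3%) and the E-box in 4 (6.9% against 7.89%). The guidance promoters were thus GC-rich, with a median of 20.5 CG dinucleotides and 64.2% G or C, against 14.0 and 57.0% over all promoters.

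CG content went with the mark, as it did across the genome. Guidance genes marked at the start in both lists had a median of 23.0 CG dinucleotides per window and a GC box in 85.7% of 42 promoters of 30 genes. Those marked in neither list had 14.5 CG and a GC box in 50.0% of 14 promoters of 13 genes. The mark was called per gene, at any of its starts, so a window of a marked gene need not hold a peak. Several windows can come from the same gene. Over all genes the same contrast was 21.0 against 4.0 CG, and a GC box in 63.5% against 23.5%, so unmarked guidance promoters were richer in CG than unmarked promoters at large.

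Most guidance genes carried the mark, and mostly over the same stretch in both conditions. The start was marked in both lists at 34 of 50 genes (68.0%), against 54.2% of all 20661 genes. No start was marked in the post-caerulein list alone (background 1.84%), 1 was in the untreated list alone (Efna3; background 1.12%), and 15 were in neither list (30.0%; background 42.8%). Of the genes marked in both lists, 8 were Eph receptors, 5 ephrins, 14 semaphorins, and 7 plexins or neuropilins. Epha3, Epha5, Epha8, Ephb1, Plxna4 and Sema3d had no peak within 50 kb in either list (6 of 50; background 19.5%). These are mostly long genes, with a median length of 341.9 kb against 32.6 kb for the 44 others, although genes without a peak were short across the genome (median 5.8 kb). A further 9 had peaks but none at the start: Efnb3, Epha10, Epha6, Plxnc1, Sema3a, Sema3g, Sema4f, Sema5b and Sema6d.

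Summed over the 50 windows, peaks covered 1176.9 kb in untreated spheroids and 1233.3 kb after caerulein. Stretches where windows of neighbouring genes overlap were counted once per gene. Among the 44 genes with a peak in reach, covered length was longer after caerulein at 27 and shorter at 17; over all genes it was longer at 52.4% and shorter at 47.6%. With 1 kb added to both lengths, 6 of 44 genes (13.6%) were at least 1.5-fold longer after caerulein, against a background of 7.27% of 16641 genes: Sema6d, Efna5, Ephb6, Sema5a, Epha6 and Sema6a. By contrast 1 gene (2.27%; background 6.66%) was at least 1.5-fold longer in untreated spheroids: Sema3a. The remaining 37 stayed within the limit, and the median log2 ratio was 0.08, against 0.01 over all genes. The families leaned different ways in these windows, though in a fixed window of 50 kb around the start 3 of 6 ephrins were longer after caerulein and 3 shorter. Covered length was longer after caerulein at 7 of 8 plexins and neuropilins (median log2 ratio 0.16) and at 14 of 19 semaphorins (0.08), but shorter at 5 of 7 ephrins (-0.16) and 6 of 10 Eph receptors (-0.10). The 5 ephrins include Efna1, Efna3 and Efna4, whose windows overlap and share peaks, so they are not independent. Summed over the 7 ephrins, covered length was 248.0 kb in untreated spheroids and 253.0 kb after caerulein. With 1 library per group these differences between families were not tested.

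**Figure D1:**
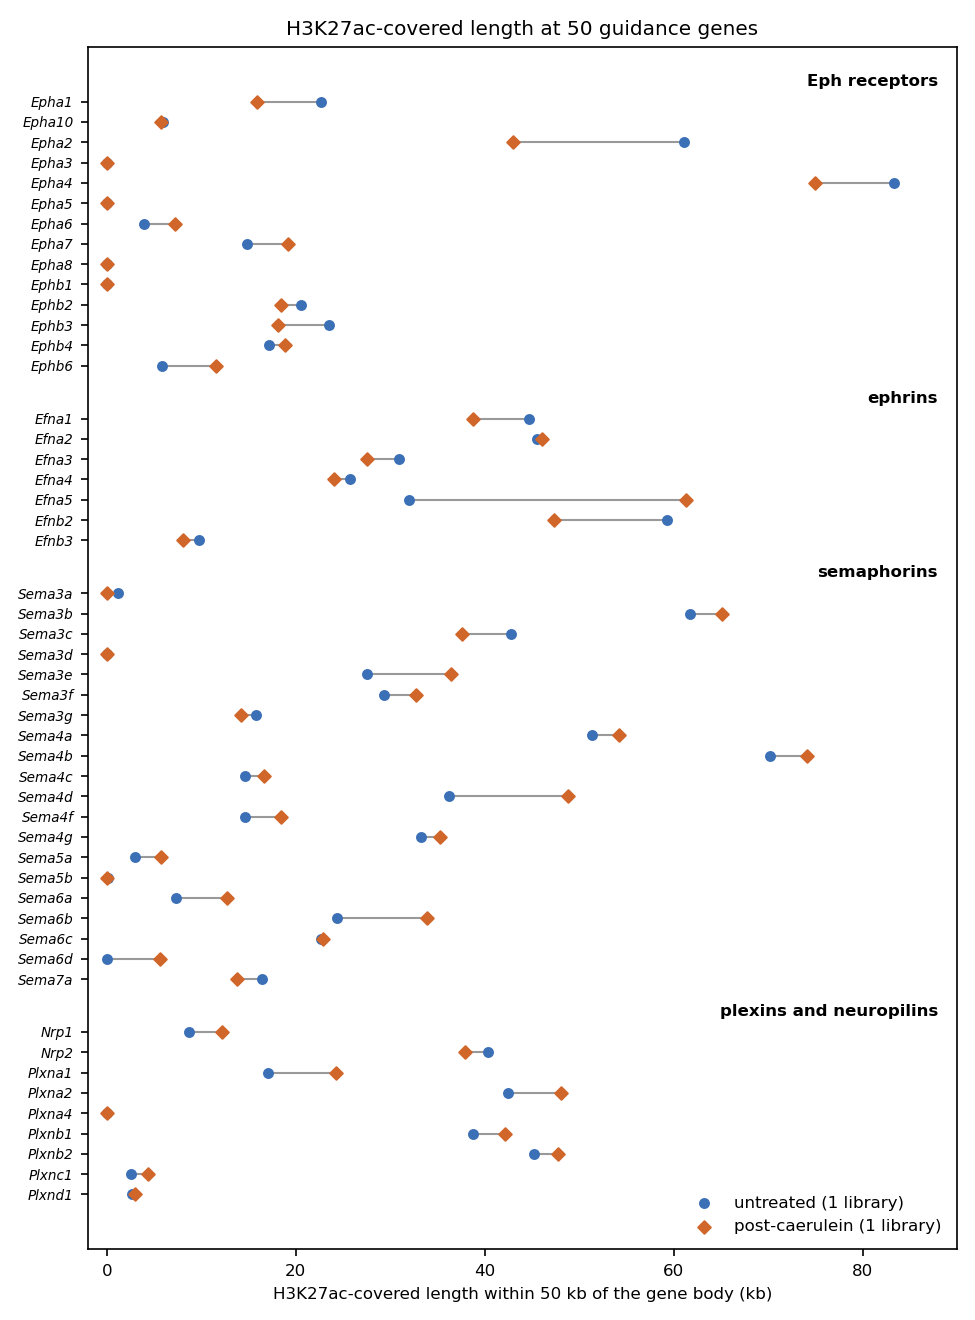
Each line is 1 of the 50 guidance genes, ordered by family; points give the covered length within 50 kb of the gene body (kb) in the untreated and post-caerulein lists, 1 library each. The points of most genes lie close together, while Efna5 moves from 32.0 to 61.3 kb and Epha2 from 61.1 to 43.0 kb.

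List-only peaks were a small part of the mark at these genes. In the untreated list 35 of 272 peaks (12.87%, exact 95% interval 9.13 to 17.44) were untreated-only, against 14.2% of all autosomal peaks. In the post-caerulein list 42 of 271 (15.5%, 11.4 to 20.37) were post-caerulein-only, against 17.6%. The intervals cover counting error over peaks only, and both shares were close to the background. The families differed in this too: 25.0% of untreated peaks near Eph receptors were untreated-only (15 of 60, interval 14.72 to 37.86), against 2.44% near plexins and neuropilins (1 of 41, 0.06 to 12.86), 18.75% near ephrins (9 of 48) and 8.13% near semaphorins (10 of 123). Post-caerulein-only shares were 13.73% near Eph receptors (7 of 51), 22.64% near ephrins (12 of 53), 13.01% near semaphorins (16 of 123) and 15.91% near plexins and neuropilins (7 of 44). Of these, 7 of the 15 untreated-only peaks near Eph receptors belonged to Epha2 and 10 of the 12 post-caerulein-only peaks near ephrins to Efna5, so single genes made up much of these shares.

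List-only peaks were narrow and weak, here as over all autosomes. Their median width was 1502 bp (untreated) and 1560 bp (post-caerulein), against 3030 and 3278 bp for shared peaks. The authors' peak score, used only to rank peaks within 1 list, put their medians at percentiles 13.3 and 20.8, against 59.7 and 66.7 for shared peaks. Only 1 of the 35 untreated-only and 2 of the 42 post-caerulein-only peaks reached the median score of their list, 1 near Epha2 and both others near Sema6d. Over all autosomes 297 of 5229 untreated-only and 181 of 6681 post-caerulein-only peaks reached it. The autosomal list-only medians were 1541 bp (untreated) and 1466 bp (post-caerulein) in width, and percentiles 16.3 and 15.2 in score. Of the untreated-only peaks 16 lay inside a guidance gene and 26 had one as nearest gene; of the post-caerulein-only peaks it was 23 and 33. Only 1 list-only peak covered an annotated start, that of Efna3. For genes with a known start, the middle of a list-only peak lay at a median of 46.6 kb (untreated) and 49.8 kb (post-caerulein) from the gene's nearest start. For shared peaks it was 30.2 and 30.9 kb.

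Post-caerulein-only peaks outnumbered untreated-only peaks by 2 or more at 8 of 44 genes (18.2%; background 11.4%): Efna5, Ephb6, Sema3e, Sema6d, Plxna2, Plxnb1, Sema4a and Sema4d. The reverse held at 5 (11.4%; background 9.86%): Epha2, Efnb2, Epha4, Efnb3 and Sema3c. Any excess of post-caerulein-only peaks was seen at 16 genes (36.4%; background 30.6%) and any excess of untreated-only peaks at 16 as well (36.4%; background 27.3%). These shares were not scaled to window length. The median guidance gene is 40.2 kb long, against 17.5 kb over all genes, so its window has more room for peaks of either kind.

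**Figure D2:**
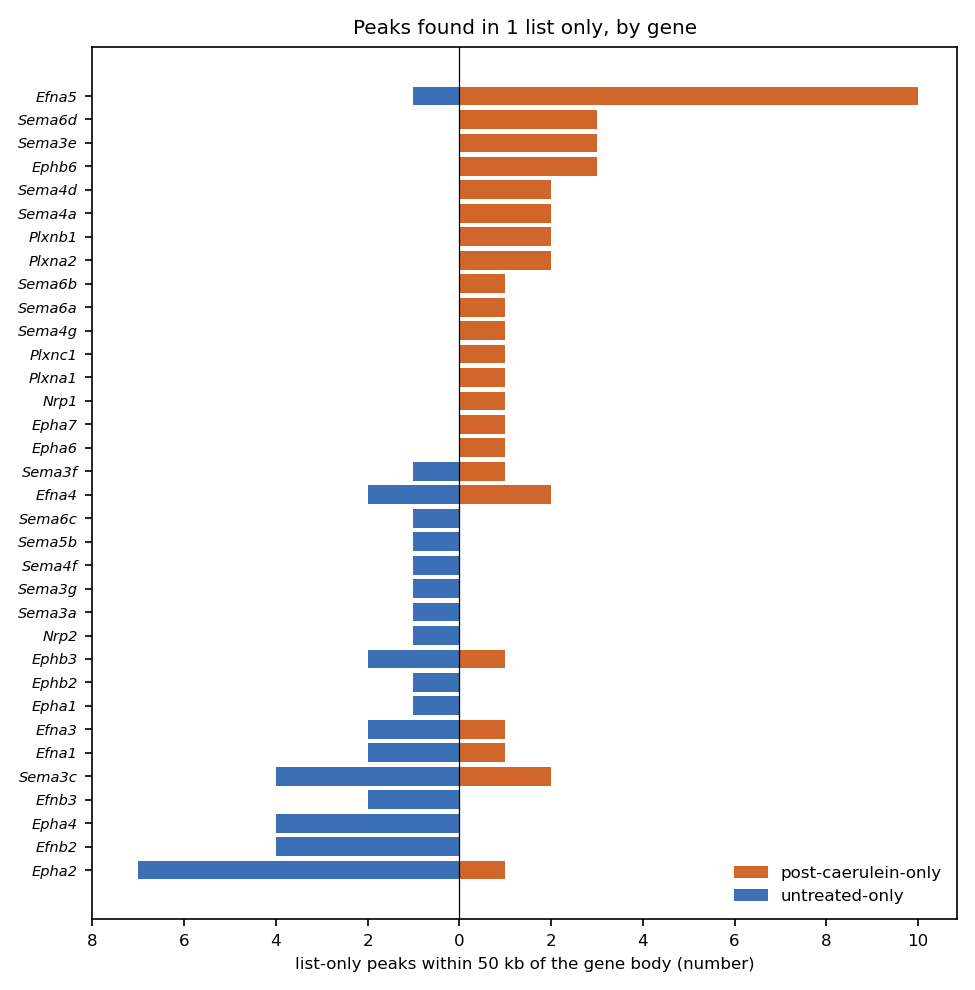
Bars count the list-only peaks within 50 kb of each gene body, untreated-only to the left and post-caerulein-only to the right, 1 library per condition. Efna5 stands out on the right with 10 peaks and Epha2 on the left with 7.

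Among the ligands, Efna5 had the largest gain in covered length in kb and the most post-caerulein-only peaks. It encodes a lipid-anchored ephrin known from retinal and cortical maps, and spans 278.4 kb at chr17:62602957-62881317. The untreated list had 11 peaks covering 32.0 kb in its window and the post-caerulein list 21 peaks covering 61.3 kb, 1.89-fold more (log2 ratio 0.92). Of these, 10 of the 21 were post-caerulein-only, and 1 of the 11 was untreated-only. Of the 10, 9 lay inside the gene, spread from 21.4 to 261.0 kb downstream of the start, with the tenth beyond the gene's end at 311.5 kb. They were 1011 to 4183 bp wide, with scores from 61.91 to 500.8; none reached the median of the list (526.37), and 6 reached the lower quartile (145.36). The untreated list had a peak 0.5 to 18.8 kb from each of them. The shared peaks were wider after caerulein as well: in all 9 peak pairs that matched 1 to 1 the post-caerulein peak was the wider, by a log2 ratio of 0.11 to 1.4, against 55.6% of 26529 such pairs over the autosomes. The 2 largest of these differences were from 1.18 to 3.13 kb at 124.2 kb from the start and from 2.38 to 5.42 kb at 204.8 kb. The peak at the start barely differed, with 5.82 kb and 6.26 kb. Over all 16641 genes with a peak in reach, 17 (0.102%) had as large an excess of post-caerulein-only peaks and 27 (0.162%) as large a gain in covered length. These ranks, here and for the genes below, were not scaled to window length. The Efna5 window spans 378.4 kb, while the median autosomal gene is 17.5 kb long, so longer genes have more room for peaks.

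**Figure D3:**
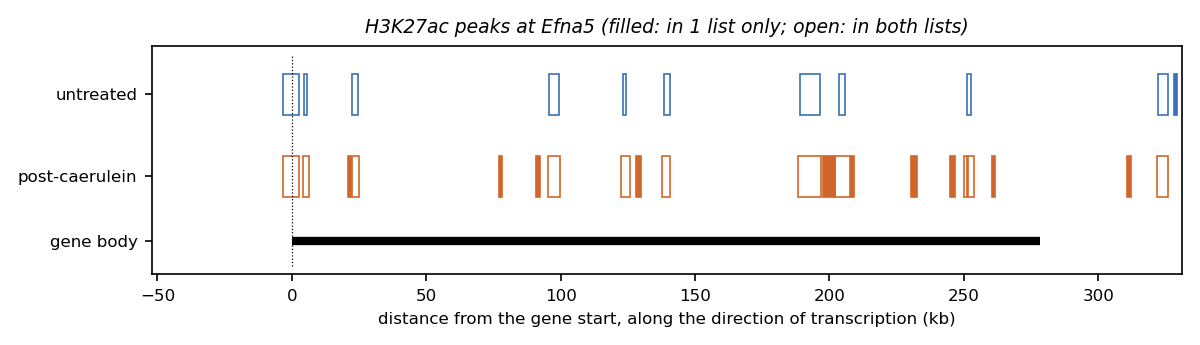
Boxes are H3K27ac peaks placed by distance from the Efna5 start along the direction of transcription (kb), filled where the peak is in 1 list only, with the gene body as a bar. The 10 filled post-caerulein peaks are strewn along the gene between the open ones and beyond its end.

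The other A-type ephrins had similar coverage in both conditions. Efna1, Efna3 and Efna4 are neighbours on chromosome 3 and share peaks within 50 kb, so they are not independent. Efna1, best known as a ligand of EPHA2, had 44.7 kb in untreated spheroids and 38.8 kb after caerulein, Efna3 30.9 and 27.5 kb, and Efna4 25.7 and 24.1 kb. At Efna3 an untreated-only peak of 1.90 kb (chr3:89320141-89322038) covered the inner of its annotated starts and lay within 1 kb of the outer one. Its score of 158.71 is at percentile 24.1 of the list, and no post-caerulein peak lay within 2.5 kb of either start. Efna2 had 45.6 and 46.1 kb, much of it in a domain of 33.6 and 33.2 kb over the neighbouring genes Atp5d, Cbarp, Cirbp and Midn.

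The B-type ephrins leaned to the untreated side, although Efnb3 turned to 0.10 (log2 ratio) within 10 kb and without low-scored peaks. Efnb2, the ephrin of arterial endothelium and of many epithelia, had 12 peaks covering 59.3 kb in untreated spheroids and 9 peaks covering 47.3 kb after caerulein (log2 ratio -0.32). In all, 4 peaks were untreated-only and none post-caerulein-only. The widest of the 4, of 4420 bp and score 331.11, lay inside the gene 25.7 kb from the start, and 1 was nearer to Arglu1 than to Efnb2. The domain over the start was 1 peak of 23.45 kb in untreated spheroids and 2 peaks of 18.05 and 6.22 kb after caerulein, parted by a gap of 75 bp. The marked stretch was therefore nearly the same, and the difference in peak width there is one of joining. Efnb3 had 9.79 and 8.06 kb, with 2 untreated-only peaks that were nearest to Dnah2 and Trp53, and its start was unmarked.

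Among the receptors, Epha2 had the largest excess of untreated-only peaks, the direction opposite to Efna5. It encodes the Eph receptor most widely found in epithelia and lies at chr4:141301221-141329384. Its window held 10 untreated peaks covering 61.1 kb and 4 post-caerulein peaks covering 43.0 kb (log2 ratio -0.50, 1.41-fold and so just short of the limit). Untreated-only peaks made up 7 of the 10 and post-caerulein-only peaks 1 of the 4. The untreated-only peaks had scores of 53.07 to 1132.15. Unlike at Efna5, most lay outside the gene and were low in score: 2 of the 7 lay inside it and 2 reached the list's lower quartile. The widest, 7278 bp wide with a score of 180.8, lay inside the gene 23.0 kb from the start, just beyond the start domain. The highest-scored, of 2081 bp (chr4:141352574-141354654), was the only one above the list's median of 681.38 and was nearest to Fam131c. Together 5 of the 7, covering 14.6 kb, fell in a single gap of 49.6 kb between post-caerulein peaks. The rest of the locus was alike in both lists: the start domain spanned 19.82 and 17.98 kb and an upstream domain 21.5 and 21.4 kb. As large an excess of untreated-only peaks was found at 64 of 16641 genes (0.385%), and as large a loss of covered length at 94 (0.565%).

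Epha4, a receptor that binds both ephrin types, had the longest covered length of the 50 genes, 83.32 kb in 14 untreated peaks and 74.96 kb in 10 post-caerulein peaks (log2 ratio -0.15). Its 4 untreated-only peaks all lay inside the gene, 29.9 to 118.6 kb from the start, and had scores of 51.73 to 93.72, under the lower quartile of 165.76. As at Efnb2, the start domain was in 1 piece of 15.34 kb in untreated spheroids and in pieces of 7.74 and 7.68 kb after caerulein, with a gap of 113 bp. An excess of 4 untreated-only peaks, as at both genes, was reached by 261 genes (1.57%).

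**Figure D4:**
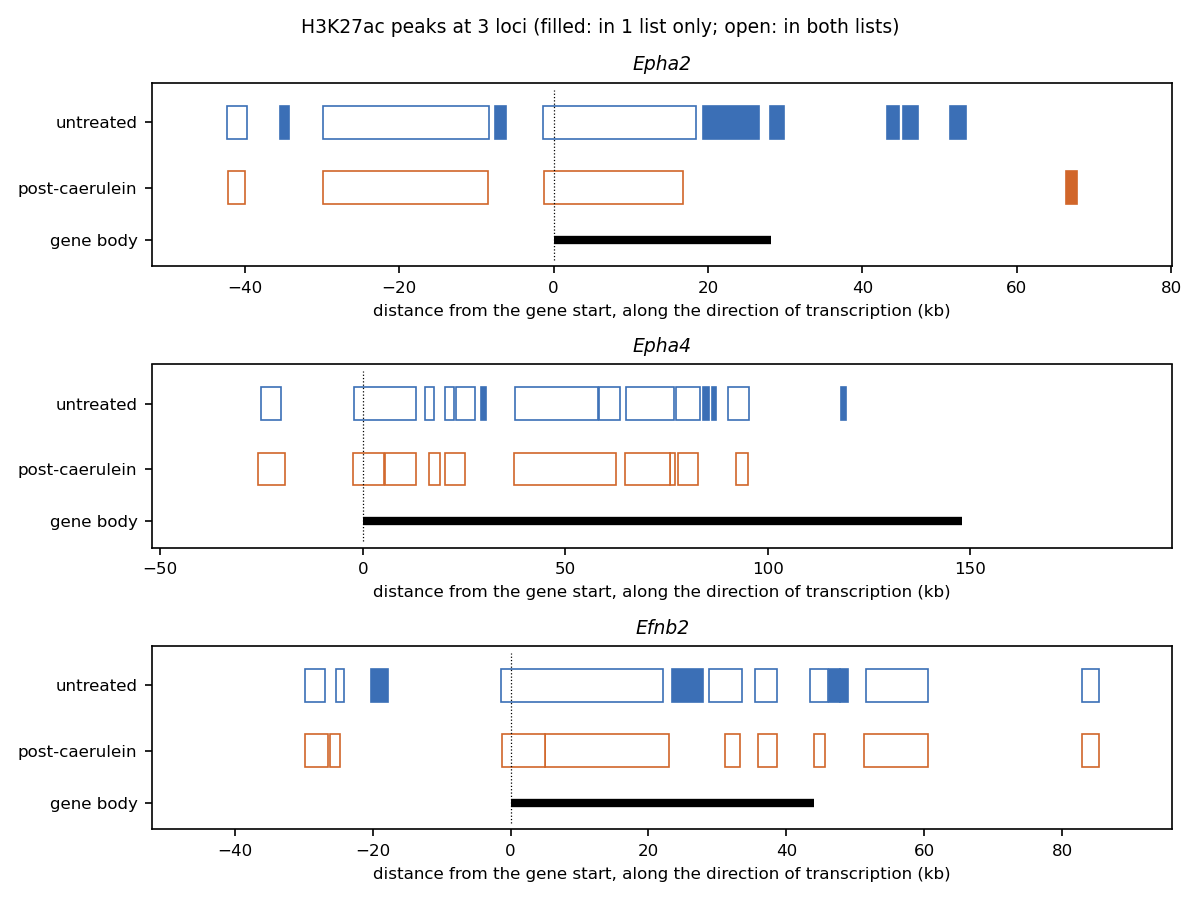
Peaks at Epha2, Epha4 and Efnb2 by distance from the gene start along the direction of transcription (kb), filled where found in 1 list only. Untreated-only peaks lie mostly to the right of the start domain at Epha2, within the gene at Epha4 and on both sides of the start at Efnb2, and the start domain is split after caerulein at Epha4 and Efnb2.

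Epha1 had 22.6 kb in untreated spheroids and 15.9 kb after caerulein (log2 ratio -0.48), mainly through 1 peak over the neighbouring gene Zyx, which was 12.99 kb wide in the untreated list, where it reached into Epha1, and 5.92 kb wide in the other, where it did not. Among the EphB receptors, which sort cells in the intestinal crypt, Ephb3 had 23.5 and 18.1 kb, and all 5 of its matched pairs were narrower after caerulein. Its highest-scored untreated-only peak (score 365.1, 2491 bp) lay 31714 bp beyond the gene. Ephb2 had 20.6 and 18.4 kb, and Ephb4, the usual partner of Efnb2 in vessels, 17.2 and 18.8 kb. Ephb6, a receptor without kinase activity, had 5.79 and 11.6 kb (1.85-fold), with 3 post-caerulein-only peaks. These were nearest to Prss2 and Trpv5, and within 10 kb of Ephb6 the covered length was 2.01 and 1.99 kb.

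The remaining Eph receptors had short covered lengths. Epha7 had 14.8 and 19.1 kb and Epha10 5.89 and 5.71 kb. Epha6, 969.5 kb long and best known from neurons, had 3.97 and 7.16 kb (1.64-fold). The difference there was 1 post-caerulein-only peak of 3118 bp and score 416.65 deep inside the gene, 591.4 kb from the nearest untreated peak.

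Among the secreted semaphorins of class 3, which are read through neuropilins and plexins, differences went both ways. Sema3e, which binds plexin D1 without a neuropilin, had 27.5 kb in untreated spheroids and 36.4 kb after caerulein (log2 ratio 0.39), with 3 post-caerulein-only peaks in the gene 47.4 to 86.4 kb from the start. Sema3c had 42.8 and 37.6 kb, with 4 untreated-only and 2 post-caerulein-only peaks, and none of its 5 matched pairs was wider after caerulein. Sema3b and Sema3f, neighbours on chromosome 9 and known as tumour suppressors, had 61.7 and 65.2 kb, and 29.4 and 32.7 kb. Sema3g had 15.8 and 14.2 kb, with 1 untreated-only peak of 3941 bp and score 331.48 that was nearest to Nisch. Sema3a, the classic axon repellent, had 1 untreated-only peak of 1208 bp and score 86.53 inside the gene and no post-caerulein peak; its start was unmarked in both lists.

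All 6 class 4 semaphorins, transmembrane proteins that bind B-type plexins among others, had longer covered lengths after caerulein (220.2 kb in all against 247.4 kb), though none passed 1.5-fold. With other windows or filters Sema4f, Sema4a and Sema4g were each shorter once, and Sema4f passed 1.5-fold once (log2 ratio 0.63). Sema4d, the ligand of plexin B1, had 36.2 and 48.8 kb (log2 ratio 0.42). All 8 of its matched pairs were wider after caerulein, 2 peaks were post-caerulein-only, and a start peak of 13.96 kb overlapped 3 untreated peaks of which the widest at the start spanned 4.56 kb. Sema4b had 70.2 and 74.1 kb. The widest peak near any of the 50 genes, 53.76 kb in the post-caerulein list with a score of 1001.14, spanned its start and overlapped 5 untreated peaks, the widest of 28.14 kb. The gain in covered length was thus small and the difference again one of joining. Sema4a had 51.4 and 54.2 kb with 2 post-caerulein-only peaks nearest to Lmna, Sema4g 33.3 and 35.2 kb, Sema4c 14.6 and 16.6 kb, and Sema4f 14.6 and 18.4 kb.

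Sema6d, a transmembrane semaphorin that binds plexin A1, was the one guidance gene with peaks after caerulein and none before. The untreated list covered 0 kb of its window and the post-caerulein list 5.66 kb, in 3 peaks: chr2:124609304-124611470 inside the gene, with a score of 671.45, and 2 beyond its 3′ end at chr2:124684127-124685786 (score 231.56) and chr2:124715962-124721779 (5818 bp, score 1552.5). The last and the first had the highest scores of all post-caerulein-only peaks near guidance genes. They lay 146.9, 72.6 and 36.6 kb from the nearest untreated peak, in this order, and none was near an annotated start, which was unmarked in both lists. The listed 0 does not give a fold, since the depth of the libraries is unknown.

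The other class 6 genes also had longer covered lengths after caerulein, except that Sema6c was shorter within 10 kb of the gene and by nearest gene. Sema6a had 7.34 and 12.7 kb, which at 1.64-fold lies just past the 1.5-fold limit, and Sema6b 24.4 and 33.9 kb (log2 ratio 0.46), of which most came from 1 peak over Lrg1, Plin5 and the end of Sema6b that spanned 1.75 and 8.93 kb, beside a post-caerulein-only peak of 4582 bp nearest to Plin4 and Plin5. Sema6c had 22.6 and 22.8 kb. Sema5a, of class 5, had 2.95 and 5.72 kb (1.70-fold), mainly through a start peak of 1.57 and 4.10 kb. Sema5b had 0.108 kb in the untreated list and was listed at 0 after caerulein, from the edge of a peak nearest to Pdia5. Sema7a, the lipid-anchored semaphorin, which acts through integrins and plexin C1, had 16.5 and 13.7 kb, and all 4 of its matched pairs were narrower after caerulein.

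All 6 plexins with a peak in reach had longer covered lengths after caerulein, and none passed 1.5-fold in these windows. With other windows or filters Plxna1 and Plxnc1 did pass it (Plxna1 at a log2 ratio of 0.69 within 10 kb), and Plxnb1 turned to -0.03 when peaks under the lower quartile of score were left out. Plxna1 had 17.0 and 24.2 kb (log2 ratio 0.49), Plxna2 42.4 and 48.1 kb with 2 post-caerulein-only peaks, Plxnb1 38.7 and 42.1 kb with 2, and Plxnb2 45.2 and 47.8 kb. Plxnb1 and Plxnb2 are receptors of class 4 semaphorins and are widely found in epithelia; their start peaks spanned 14.26 and 14.18 kb, and 24.74 and 24.73 kb. Plxnc1 had 2.57 and 4.30 kb, which with 1 kb added to both is 1.49-fold, just short of the limit. Plxnd1, known from endothelium, had 2.60 and 2.97 kb. Of the neuropilins, co-receptors of class 3 semaphorins and of VEGF, Nrp1 had 8.71 and 12.2 kb (log2 ratio 0.44) and Nrp2 40.4 and 37.9 kb. At Nrp2 a post-caerulein peak of 20.38 kb joined 3 untreated ones.

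The start peaks of the 34 genes marked in both lists mostly kept their width. It stayed within 1.5-fold at 25 (73.5%), against 89.9% of 11200 genes. It was at least 2-fold wider after caerulein at 3 (8.82%; background 2.46%), Sema4d, Sema5a and Plxna1, the last with 1.72 and 3.52 kb. It was at least 2-fold wider in untreated spheroids at 2 (5.88%; background 1.97%), Efnb2 with 23.45 and 6.21 kb and Sema4g with 3.38 and 1.67 kb. Epha4 lay just short of 2-fold. At Efnb2, Epha4 and Sema4d the count of peaks over the same stretch differs between lists, as given above. Over the 196 peaks near guidance genes that matched 1 to 1, the median log2 width ratio was 0.07, against 0.03 over the autosomes. Of these, 7 (3.57%; background 2.85%) were at least 2-fold wider after caerulein and 3 (1.53%; background 2.04%) in untreated spheroids.

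**Figure D5:**
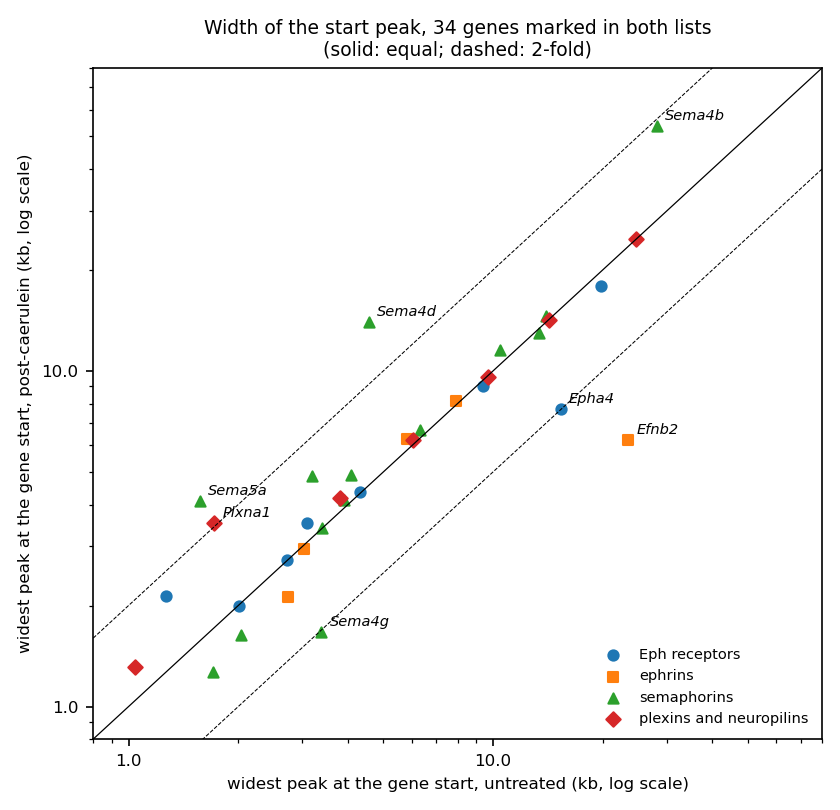
The widest peak at the start of each of the 34 genes marked in both lists, untreated on the horizontal and post-caerulein on the vertical log axis (kb), by family. Most points lie near the line of equal width. Sema4d, Sema5a and, narrowly, Plxna1 lie above the upper 2-fold line, and Efnb2 and, narrowly, Sema4g below the lower one.

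Other guidance families were looked at in the same way. Of 20 genes for slits, Robo receptors, netrins, their receptors DCC, neogenin and UNC5, and repulsive guidance molecules, 7 had a marked start in both lists (54.2% of all genes did), 1 (Slit2) in the untreated list alone and 12 in neither. Of the 17 with a peak in reach, 3 were at least 1.5-fold longer after caerulein (Robo3, Robo4 and Ntn1; background 7.27%) and 2 in untreated spheroids (background 6.66%; Slit2, from 3.48 kb to a listed 0, and Slit3, with 3.95 and 2.16 kb). The longest covered lengths were at Ntn5 (57.96 and 58.09 kb), Ntn3 (47.4 and 35.3 kb) and Unc5b (28.6 and 30.5 kb), while Dcc, Unc5c and Unc5d had no peak.

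Of 48 genes for proteins that carry Eph or plexin signals inside the cell, 37 were marked at the start in both lists (background 54.2%), 2 after caerulein alone (Fyn and Grb10) and 9 in neither. Among the 47 with a peak in reach, 7 were at least 1.5-fold longer after caerulein (background 7.27%) and 2 in untreated spheroids (6.66%), with a median log2 ratio of 0.07. Vav2, a guanine nucleotide exchange factor that Eph receptors recruit, had 52.4 and 82.2 kb and 9 post-caerulein-only against 0 untreated-only peaks. Farp1, an exchange factor linked to class A plexins, had 61.8 and 100.4 kb with 9 against 1. Pik3r1, a regulatory subunit of PI3-kinase, had 23.4 and 39.2 kb, Grb10, an adaptor, 4.46 and 14.1 kb, and Fyn, a Src-family kinase, 4.24 and 12.3 kb. On the other side Nck1, an adaptor that binds phosphorylated Eph and ephrin-B tails, had 32.9 and 18.7 kb with 5 untreated-only peaks and none of the other kind. Met, the HGF receptor that couples to B-type plexins, had 80.5 and 76.6 kb, with 9 untreated-only and 2 post-caerulein-only peaks.

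Markers of the labelled cell type and of others were looked at in the same way. All 10 ductal epithelial markers, among them Krt19, Epcam and Sox9, were marked at the start in both lists, with 568.9 kb covered in untreated spheroids and 537.7 kb after caerulein. Among them Cftr was longer in untreated spheroids (54.53 and 23.63 kb, with 8 untreated-only peaks), while Sox9 (5.12 and 11.16 kb) and Spp1 (16.57 and 27.56 kb) were longer after caerulein, all beyond 1.5-fold. Acinar markers were marked in both lists at 1 of 10 (Bhlha15), endocrine markers at 0 of 8 and mesenchymal markers at 0 of 8, with a mesenchymal total of 46.0 and 57.2 kb. Endothelial markers were marked at 1 of 8 (Vwf), with 95.1 and 83.9 kb, and Pecam1 and Cdh5 were unmarked. Immune markers were marked at 2 of 8, with Ptprc marked after caerulein alone and a total of 98.5 and 90.7 kb. Outside the ductal list, genes past 1.5-fold went both ways. Immune Spi1 (15.25 and 6.25 kb), acinar Cpa1, endocrine Chga, and endothelial Cdh5 and Tek were longer in untreated spheroids. Immune Csf1r (7.57 and 12.62 kb), endocrine Mafa, mesenchymal Pdgfrb and Vim, and endothelial Kdr were longer after caerulein. The part of other cell types in the differences above was not tested.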

How the data were processed

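H3K27ac chromatin immunoprecipitation libraries of untreated and post-caerulein spheroids were compared through 1 deposited peak list each (37765 and 38793 peaks). The input library was not used. The submitters' processing notes list SAMtools, Trimmomatic 0.38 (a read trimmer), Bowtie2 2.2.6 (an aligner) and MACS 1.4 (a peak caller) with the builds GRCm38 and mm10, without saying how each was run. The control and the options of the peak caller are not given in the sources used here. The deposited score of each peak (50.0 to 3233.06) has no definition in the file; 8440 untreated and 5828 post-caerulein peaks have 3100 or more. It served only to rank and filter peaks within a list. The lists hold no read counts, so depth is unknown and no limit for an absent peak can be given.

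Gene bodies, strands and promoter sequences came from RefSeq tables of GRCm38.p6. The promoter table gives starts for 44 of the 50 genes; for Plxna4, Plxna1, Sema3b, Sema3f, Efnb3 and Sema6a either gene end was used. Overlap of at least 1 bp made a peak shared, a count checked against bedtools 2.31.1. Log2 ratios of covered length used a pseudocount of 1 kb and a limit of 1.5-fold. The code (Python 3.11.15) was tested on simulated data. With 1 library per group no test between conditions was possible, and exact (Clopper-Pearson) 95% intervals cover counting error over peaks only.

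Genes were named by rule: past the fold limit, list-only counts differing by 2 or more, a start marked in 1 list only, the 6 longest covered lengths, the widest and the 3 highest-scored list-only peaks per list, and genes with no peak; other members are given by their covered lengths. The Efna5 and Epha2 promoters were added after their values were seen, and that of Sema4a, picked by rule, is not shown. The members, the gene lists and the comparisons were chosen with earlier results of these data known. Alternatives changed the overlap, score filter, window, pseudocount and distance to the start. The result of 1 further marker list is not reported here.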

Additional observations from a re-analysis of the deposited data

How the results depend on the processing

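No paired analysis was possible because there is 1 library per condition. The share of list-only peaks ranged from 10.7% (without Epha2) to 16.0% in the untreated list and from 12.8% (without Efna5) to 20.6% in the post-caerulein list, where the highest value came from peaks whose nearest gene is a guidance gene; counting only peaks that reached their list's median score, it was 0.676% and 1.29%. Leaving out Efna5 or Epha2 was chosen after seeing the data. Starts marked in both lists numbered 25 with peaks at or above the median score and 32 to 34 otherwise. Genes at least 1.5-fold longer after caerulein numbered 3 with a pseudocount of 5 kb and 4 to 8 otherwise. With 5 kb, Sema5a (log2 ratio 0.43), Epha6 (0.44) and Sema6a (0.52) fell under the limit. Those gained were Plxnc1 in 3 alternatives (fixed window, score filter, nearest gene), Sema6b in 3 (10 kb, fixed window, nearest gene), Plxna1 in 2 (10 kb, nearest gene), and Sema4f and Nrp1 with the score filter. Those longer in untreated spheroids numbered 4 within 10 kb of the gene body (Efna3, Epha2, Sema3a and Epha1), 3 with nearest-gene peaks (Sema4g, Sema3a and Epha1), and 0 in a fixed window around the start and with a pseudocount of 5 kb; with peaks at or above the lower quartile of score it was 1, Sema7a and not Sema3a. Sema6d kept its call in all 5 alternatives that gave a value and Efna5 in 5 of 6, being 0.30 (log2) in a fixed window of 50 kb around the start. Ephb6 kept it in 3 of 6 and turned to -0.01 within 10 kb. Of the log2 ratios of single genes under each alternative, 222 kept their place within or past the 1.5-fold limit and 23 crossed it. A change of sign was counted only for genes past the limit in the main setting, which gave 1, Ephb6. Ratios that kept their place could still shift or change sign, as at Sema4f from 0.32 to -0.35 in the fixed window. For none of these shifts was the cause tested. Unknown depth limits every list-only call, most of all for low-scored peaks.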
